A study of Mus musculus with 8 samples.

Results

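Notch ligands, receptors and targets were followed in 4 mouse mammary tumour lines as a set of 10 genes: the ligands Dll1, Dll4, Jag1 and Jag2, the receptors Notch1, Notch2, Notch3 and Notch4, and the target genes Hes1 and Hey1. They were chosen by symbol, with earlier results of these data known, and are the 10 rows out of 27179 in the count matrix whose Entrez identifier carries those symbols. RNA-seq read counts were available for cultured 4T1.2, 4T1, 66cl4 and 67NR cells, with 2 biological replicates of each line and no treatment in any. These are related carcinoma lines of BALB/c origin: 4T1 and its derivative 4T1.2 are highly metastatic, whereas 66cl4 and 67NR have low metastatic potential, and no control line of normal mammary cells was among the libraries. The question was whether the levels of the ligands go with those of the receptors and targets across the lines.

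Notch signalling passes between touching cells. A ligand of the Delta-like or Jagged family on the surface of one cell binds a Notch receptor on its neighbour, the receptor is cut in turn by an ADAM protease and by gamma-secretase, and the freed intracellular domain enters the nucleus, where it joins the DNA-binding protein RBPJ and a Mastermind co-activator to switch on genes such as Hes1 and Hey1. A ligand can also hold back receptors on its own cell, and in blood vessels Dll4 on tip cells restrains sprouting by the cells next to them, so a count of ligand RNA in tumour cells alone does not tell which cell receives the signal.

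Library totals ran from 37159840 to 66269681 counts, and all 10 genes passed the filter on low counts into the set of 13913 genes tested. Levels are given as CPM, the count of a gene relative to its library size after TMM scaling, which balances libraries on their shared genes, with the standard deviation (SD) over 2 replicates. Levels are compared between Notch genes only as RPKM, which also divides by gene length, while cell type markers are summed as CPM. Differences are log2 fold changes with their standard error (SE) from edgeR's quasi-likelihood test, with p-values adjusted over all genes tested and called under 0.05. Epcam and Cdh1, markers of epithelial cells, lay between 11.1 and 46.7 CPM in 4T1.2 and 4T1 cells and at no more than 0.155 CPM in 66cl4 and 67NR cells, where the mesenchymal genes Cdh2 and Zeb1 were at 60.0 CPM or more. The summed CPM of the 7 epithelial markers was 1476 to 2894 in the libraries of the metastatic pair and 465 to 720 in the others, carried by Krt8 and, except in 67NR cells, Krt18, and Krt5 was near 0 in every library. The sum of the 6 mesenchymal markers did not follow Cdh2 and Zeb1: it was 7199 to 9527 CPM in the libraries of the metastatic pair and 6218 to 7416 CPM in the others. Vim and Sparc were higher on average in the metastatic pair, while Fn1 and S100a4 were lower there, as Cdh2 and Zeb1 were. So the contrast between the pairs of lines is also one between lines with and without epithelial cadherin, and the part of this in the Notch gene differences was not tested.

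All 4 ligands were higher in the metastatic lines when 4T1/4T1.2 cells were set against 66cl4 and 67NR cells, each pair averaged, and their log2 fold changes ran from 1.01 for Jag1 to 6.61 for Dll4, with Dll1 at 0 counts in the low group. Of the 10 genes, 7 were higher and 2 lower in this pooled comparison, while 76.7% of all genes tested were called in one direction or the other, 38.1% higher and 38.6% lower. Libraries of the groups did not overlap for 6 of the 10 genes, as for 55.5% of all genes. With so many genes called, a call alone says little about a member, and sizes and patterns over the lines are described. The median log2 fold change of the 10 genes was 1.15, beside -0.01 over all genes tested, and the median of its size was 1.84, beside 0.58.

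Dll1 and Dll4 encode the Delta-like ligands, the members that moved furthest between the pairs of lines. As background to the RBPJ-binding sequence, their promoter windows, from 250 bases before to 50 bases after a transcription start, are shown with that of Lfng, a glycosyltransferase gene described further on, and no value here measures promoter activity. The sequences are from RefSeq (GRCm38.p6) and run 5′ to 3′ along the gene's own strand. RefSeq gives 2 starts for Dll1, at chr17:15376883-15377182 and chr17:15375774-15376073 on the minus strand, 1 for Dll4, at chr2:119325534-119325833 on the plus strand, and 1 for Lfng, at chr5:140607091-140607390 on the plus strand. Capitals mark TGGGAA, the core of the sequence bound by RBPJ, or its reverse complement TTCCCA.
Dll1, outer start: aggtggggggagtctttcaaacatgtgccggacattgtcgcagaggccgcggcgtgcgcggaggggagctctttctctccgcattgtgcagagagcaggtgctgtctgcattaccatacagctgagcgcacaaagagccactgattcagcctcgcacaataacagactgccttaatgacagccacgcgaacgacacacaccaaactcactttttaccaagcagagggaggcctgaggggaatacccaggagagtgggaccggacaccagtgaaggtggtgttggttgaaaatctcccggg
Dll1, inner start: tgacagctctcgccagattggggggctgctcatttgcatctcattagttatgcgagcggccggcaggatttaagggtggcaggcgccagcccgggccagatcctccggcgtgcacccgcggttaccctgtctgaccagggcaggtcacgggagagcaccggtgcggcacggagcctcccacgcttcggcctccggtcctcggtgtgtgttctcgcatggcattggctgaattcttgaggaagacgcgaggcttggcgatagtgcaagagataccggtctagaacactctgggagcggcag
Dll4: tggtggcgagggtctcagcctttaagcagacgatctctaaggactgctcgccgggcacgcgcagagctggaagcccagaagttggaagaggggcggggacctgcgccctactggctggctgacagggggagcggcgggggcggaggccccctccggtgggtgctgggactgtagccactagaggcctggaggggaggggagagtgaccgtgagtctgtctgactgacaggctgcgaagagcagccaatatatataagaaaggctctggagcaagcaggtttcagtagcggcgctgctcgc
Lfng: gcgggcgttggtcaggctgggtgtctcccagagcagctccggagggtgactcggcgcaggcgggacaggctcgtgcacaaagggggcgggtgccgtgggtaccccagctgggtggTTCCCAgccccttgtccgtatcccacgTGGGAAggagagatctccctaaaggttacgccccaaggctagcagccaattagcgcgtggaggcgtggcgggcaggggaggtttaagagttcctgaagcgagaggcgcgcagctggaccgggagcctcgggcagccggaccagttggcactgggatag
Neither Dll1 window nor the Dll4 window held these letters on either strand, and the same was true of the windows of Jag1, Jag2, Notch1, Notch2, Notch3 and Notch4, so 9 windows of the 8 member genes with an entry had no match. Over the whole set of 32851 promoters, 25.6% held the core. The Lfng window held it on both strands, the second time as part of the longer CGTGGGAA, which with its reverse complement TTCCCACG was found in 0.734% of promoters and overlaps the core. Of the other genes searched from the wider list, the window of Nrarp held no match, and those of Rbpj, Hes5 and Hey2 held at least 1. The Hes5 and Hey2 windows also held the core on both strands, and in that of Hey2 each was part of the longer sequence. Hes5 and Hey2 had too few counts in these libraries to be tested, so the longer sequence was not particular to a gene with a high level. Hes1, Hey1 and, from the wider list, Heyl had no entry.

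Dll1 (chromosome 17, 15367354 to 15376932, GRCm38 as for all positions given) reached 19.3 and 16.2 CPM in the 4T1.2 replicates and 23.9 and 22.1 CPM in the 4T1 replicates, from 917 to 1459 counts. It had 0 counts in all 4 libraries of 66cl4 and 67NR cells. Taken against a floor of 3 counts per library, the pooled level of Dll1 in the metastatic lines was at least 309-fold higher (adjusted p = 3.43e-09). By single lines the bound was 345-fold for 4T1 over 66cl4, 352-fold for 4T1 over 67NR, 267-fold for 4T1.2 over 66cl4 and 272-fold for 4T1.2 over 67NR, and these bounds cover counting error only. In bulk RNA, fewer cells with a transcript and less of it per cell cannot be told apart. Dll1 shares 20.5% of its exon bases with a non-coding gene on the opposite strand, A930024N18Rik, which counting without strand would not separate. In the other members the exon bases shared with any other gene came to 10.4% at most, in Notch1, and to 0 in Jag1, Jag2, Notch4, Hes1 and Hey1.

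Dll4 (chromosome 2, 119325784 to 119335666) followed the same split without falling to 0. It was at 13.5 and 11.9 CPM in 4T1.2 cells, 21.6 and 18.1 CPM in 4T1 cells, 0.243 and 0.313 CPM in 66cl4 cells, and 0.164 and 0.0486 CPM in 67NR cells. The low values stand for 11 and 14 counts in 66cl4 cells and 6 and 3 counts in 67NR cells, so both lines had a trace of Dll4 where Dll1 had none. Dll4 was the single member gene to pass in all 6 comparisons of single lines, as 4.64% of all genes tested did. The largest was 4T1 over 67NR, with a log2 fold change of 7.71 (SE 0.30, adjusted p = 1.10e-08), which was 8.61 without 67NR replicate 1 and 6.90 without 67NR replicate 2. The excess of 66cl4 over 67NR, 1.56 (SE 0.54, adjusted p = 0.0385), rested on those few counts, and its adjusted p was 0.358 without 67NR replicate 2, 0.0737 without 66cl4 replicate 1 and 0.161 without 66cl4 replicate 2.

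The Jagged ligands were present in every line. Jag2 (chromosome 12, 112907803 to 112929812) stood at 24.2 CPM in both 4T1 replicates, at 8.35 and 7.38 CPM in 4T1.2 cells, at 1.66 and 1.43 CPM in 66cl4 cells, and at 1.2 and 1.62 CPM in 67NR cells. Its 4T1 replicates stood well apart from those of 4T1.2, and the 66cl4 and 67NR libraries overlapped. Relative to 66cl4, the log2 fold change of Jag2 was 3.97 in 4T1 cells (SE 0.17, adjusted p = 2.09e-08) and 2.35 in 4T1.2 cells (SE 0.17, adjusted p = 1.07e-06). Jag1 (chromosome 2, 137081451 to 137116520) varied least among the ligands. Replicates gave 14.3 and 11.4 CPM in 4T1 cells, 8.16 and 6.28 CPM in 4T1.2 cells, 6.10 and 5.05 CPM in 66cl4 cells, and 3.88 and 4.30 CPM in 67NR cells. The pooled log2 fold change of Jag1 was 1.01 (SE 0.13, adjusted p = 5.37e-05). Between 4T1.2 and 66cl4 it was 0.37 with a 95% interval of -0.04 to 0.78 (adjusted p = 0.0934), and 0.56 without 4T1.2 replicate 2 (adjusted p = 0.0437).

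**Figure D1:**
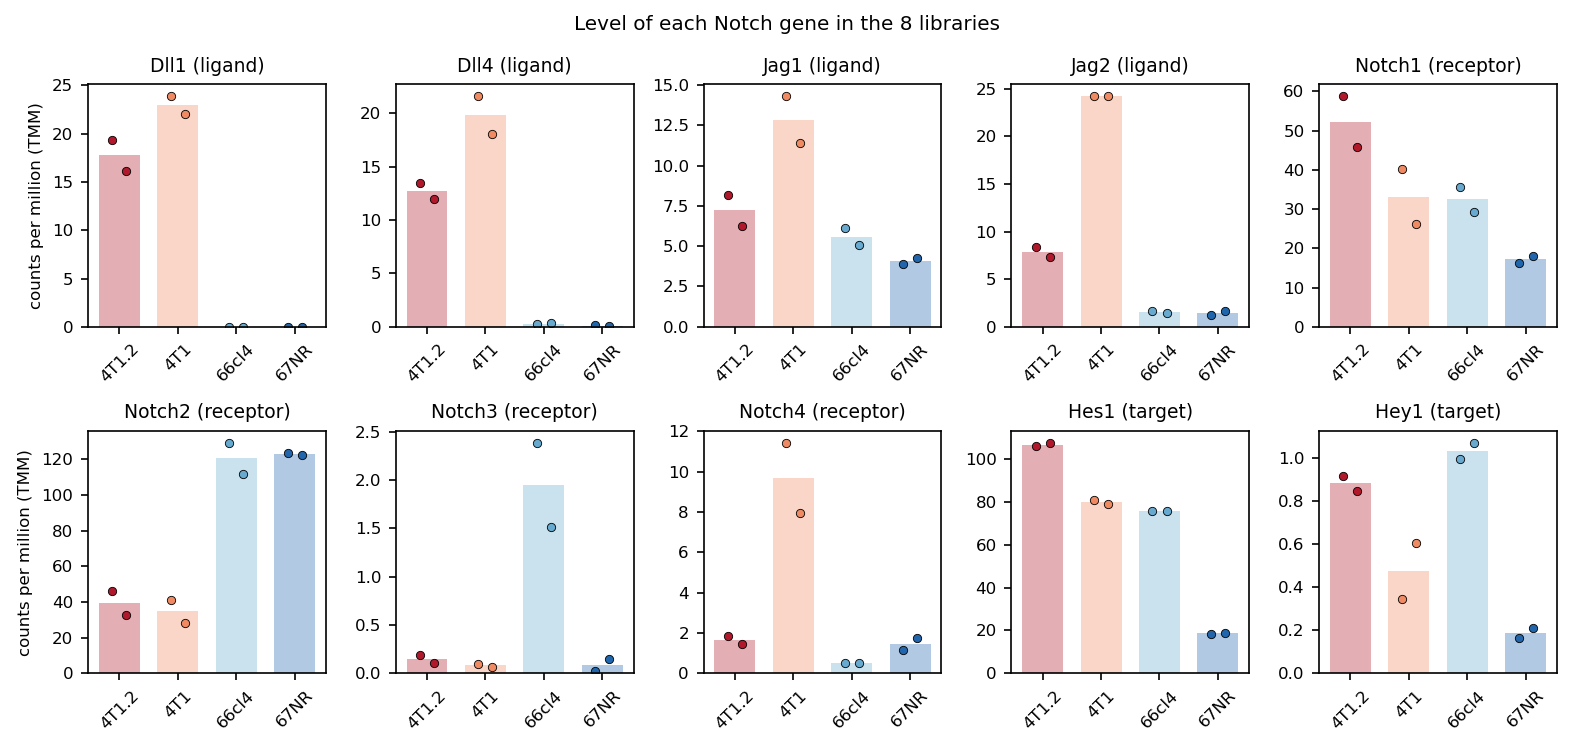
Level of each of the 10 Notch genes in CPM (vertical axes, a separate linear scale from 0 for each gene) in the 4 lines (horizontal axes), with a bar for the mean and a dot for each of 2 replicates. The bars of Dll1, Dll4 and Jag2 stand high over 4T1.2 and 4T1 and low or at 0 over the other lines, Notch2 shows the reverse, and Hes1 is at 18.7 CPM in 67NR cells against 75.7 CPM or more elsewhere.

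The receptors did not move together. In the metastatic lines Notch1 and Notch4 were higher and Notch2 and Notch3 lower, and the median log2 fold change of the 4 genes in the pooled comparison was -0.45. Notch2 (chromosome 3, 98013538 to 98150367) split the lines most cleanly, at 129, 112, 124 and 123 CPM in the libraries of 66cl4 and 67NR cells, against 46.3 and 32.7 CPM in 4T1.2 cells and 41.3 and 28.3 CPM in 4T1 cells. Its pooled log2 fold change was -1.72 (SE 0.14, adjusted p = 1.75e-06). Within each pair of lines Notch2 libraries overlapped, with intervals of the log2 fold change from -0.25 to 0.61 for 4T1.2 against 4T1 and from -0.45 to 0.40 for 66cl4 against 67NR.

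Notch1 (chromosome 2, 26457902 to 26503822) was graded over the lines instead. Its level was 58.8 and 45.8 CPM in 4T1.2 cells, 40.1 and 26.3 CPM in 4T1 cells, 35.7 and 29.2 CPM in 66cl4 cells, and 16.3 and 18.2 CPM in 67NR cells. The 4T1 and 66cl4 replicates overlapped, and the log2 fold change between these lines was 0.03, with a 95% interval of -0.41 to 0.48 (adjusted p = 0.887). It was -0.31 without 4T1 replicate 1 and -0.10 without 66cl4 replicate 2. The ends of the grade were apart: 4T1.2 over 67NR had a log2 fold change of 1.60 (SE 0.20, adjusted p = 7.16e-05).

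Replicates 1 and 2 of the metastatic lines differed for the long receptor transcripts in particular. Genes over 7500 bases (721 of those tested, among them Notch1, Notch2 and Notch3) were higher in replicate 1 than in replicate 2 by a median log2 difference of 0.29 in 4T1 cells and 0.15 in 4T1.2 cells, beside 0.07 in 66cl4 and 0.05 in 67NR cells. In the pooled comparison the median log2 fold change of these long genes was -0.38, while that of genes under 1500 bases was 0.23. With each library's trend on gene length removed, a step added after the data were seen, the pooled log2 fold change was 1.15 for Notch1 and -1.35 for Notch2, and Notch1 was higher in 4T1 than in 66cl4 cells by 0.42 (adjusted p = 0.00783). The direction of both pooled differences was therefore the same on either scale, and the standing of Notch1 in 4T1 beside 66cl4 cells was not.

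Notch4 and Notch3 were each highest in a single line. Notch4 (chromosome 17, 34564286 to 34588543) measured 11.4 and 7.97 CPM in 4T1 cells, 1.85 and 1.47 CPM in 4T1.2 cells, 0.531 and 0.491 CPM in 66cl4 cells, and 1.15 and 1.73 CPM in 67NR cells. Both 4T1 libraries lay above all others. The 4T1.2 libraries lay above those of 66cl4 but overlapped those of 67NR, against which the log2 fold change was 0.17, with an interval of -0.44 to 0.77. Notch4 is a receptor best known from endothelial cells, and the summed CPM of 8 endothelial markers was also highest in 4T1 cells, at 9.52 to 9.86, beside 1.66 to 1.78 in 4T1.2 cells and no more than 0.641 in the others. That sum was carried by Tie1 (6.06 and 7.25 CPM) and Cdh5 (3.34 and 1.94 CPM), while Kdr had 1 count in each 4T1 library and Erg and Emcn had none. Notch3 (chromosome 17, 32120820 to 32166896) measured 2.39 and 1.52 CPM in 66cl4 cells, from 108 and 68 counts, and at 1 to 11 counts in each of the 6 other libraries. Its log2 fold change between 66cl4 and 67NR was 4.25 (SE 0.48, adjusted p = 8.79e-05) and 6.04 without 67NR replicate 2, and the pooled value of -1.97 (SE 0.50, adjusted p = 0.00460) rested on 66cl4 cells and was -1.08 without that library (adjusted p = 0.373).

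Hes1, which encodes a transcriptional repressor and is the most widely used readout of Notch activity, set 67NR cells apart rather than the metastatic pair. Hes1 (chromosome 16, 30065357 to 30067796) measured 106 and 108 CPM in 4T1.2 cells, 81.2 and 78.9 CPM in 4T1 cells, 75.8 and 75.7 CPM in 66cl4 cells, and 18.6 and 18.8 CPM in 67NR cells. Replicates lay close together, and the pooled log2 fold change was 1.30 (SE 0.06, adjusted p = 1.69e-08), yet 66cl4 cells, with next to no Delta-like ligand RNA, had nearly the Hes1 level of 4T1 cells. The log2 fold change of 4T1 over 66cl4 was 0.08, with a 95% interval of -0.10 to 0.26 (adjusted p = 0.388), and it turned to -0.03 when library totals replaced the TMM scaling. Against 67NR, Hes1 was higher by 2.02 in 66cl4 cells (SE 0.08, adjusted p = 2.05e-07), by 2.10 in 4T1 cells (SE 0.08, adjusted p = 1.43e-08) and by 2.52 in 4T1.2 cells (SE 0.08, adjusted p = 4.47e-09), all on the log2 scale.

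Hey1 (chromosome 3, 8663359 to 8667038), a related repressor gene, was low throughout. It was at 0.916 and 0.847 CPM in 4T1.2 cells, 0.344 and 0.604 CPM in 4T1 cells, 0.995 and 1.07 CPM in 66cl4 cells, and 0.164 and 0.211 CPM in 67NR cells. Like Hes1 it was lowest in 67NR cells, but its highest mean was in 66cl4 cells, where it exceeded 67NR by a log2 fold change of 2.41 (SE 0.36, adjusted p = 0.000468). Hey1 was lower in 4T1 than in 66cl4 cells, at -1.16 (SE 0.30, adjusted p = 0.00627), a call that did not pass without 4T1 replicate 1 (adjusted p = 0.0646). In the pooled comparison Hey1 was the member gene that did not pass, with a log2 fold change of 0.51 and an interval of -0.03 to 1.05 (adjusted p = 0.0753), and it passed without 4T1 replicate 1 (0.71, adjusted p = 0.0215).

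**Figure D2:**
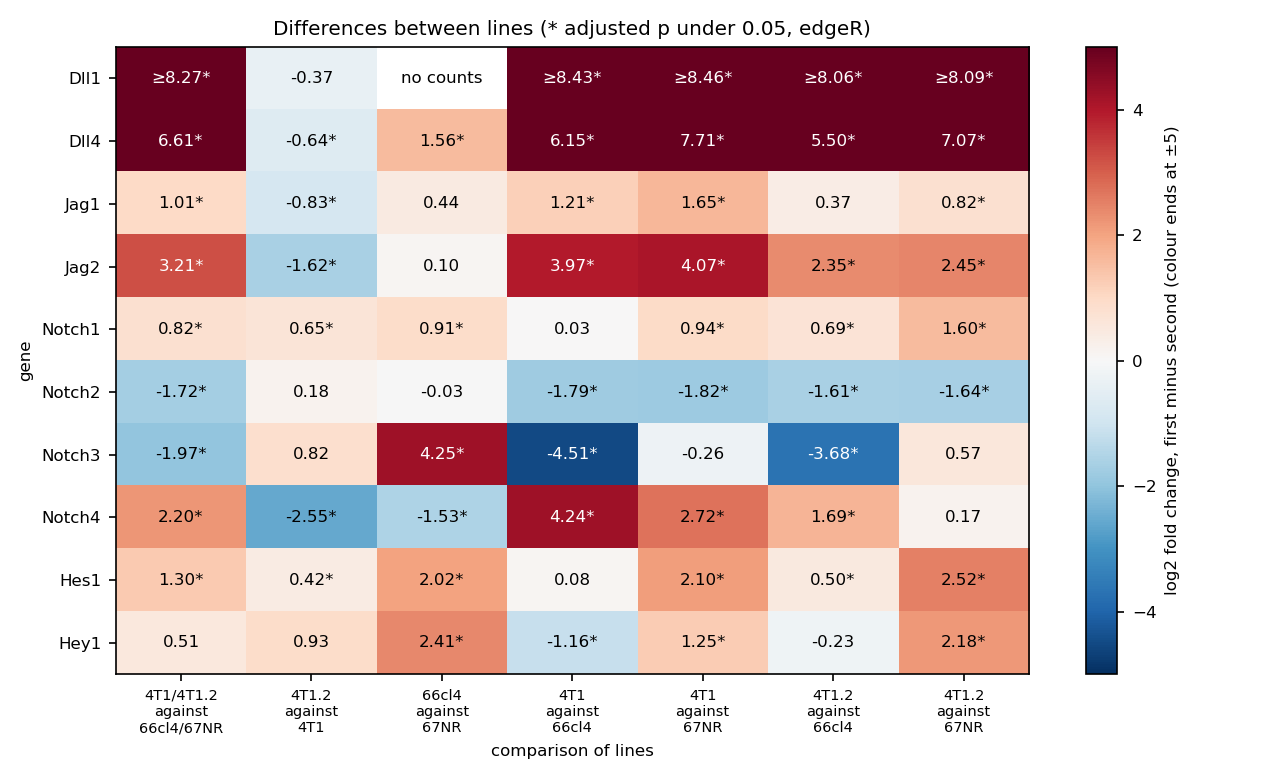
Log2 fold change of the 10 Notch genes (rows) in 7 comparisons of lines (columns), coloured on a common scale, with an asterisk for an adjusted p under 0.05 and a lower bound marked for Dll1 where a line had 0 counts. The rows of the ligands are positive wherever a metastatic line is set against 66cl4 or 67NR, while those of the receptors differ in sign and Hes1 is most positive against 67NR.

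Compared per length and summed by role, ligands, receptors and targets gave different pictures of the lines. The summed RPKM of the 4 ligands was 20.8 ± 1.48 in 4T1 cells, 12.1 ± 1.38 in 4T1.2 cells, 1.48 ± 0.161 in 66cl4 cells and 1.12 ± 0.104 in 67NR cells (SD, n = 2). Summed RPKM of the 4 receptors was 15.2 ± 1.74 in 66cl4 cells, 13.8 ± 0.140 in 67NR cells, 9.54 ± 1.94 in 4T1.2 cells and 8.29 ± 2.28 in 4T1 cells (SD, n = 2). The 2 targets summed to 74.0 ± 0.878 RPKM in 4T1.2 cells, 55.4 ± 1.04 in 4T1 cells, 52.7 ± 0.0273 in 66cl4 cells and 13.0 ± 0.134 in 67NR cells (SD, n = 2), of which Hes1 made up 99.1% to 99.6%. Ligand sums thus lay above the receptor sums in the metastatic pair and far below them in 66cl4 and 67NR cells. The receptor libraries of the 2 pairs did not overlap either, in the opposite direction from the ligands, and these sums were described without a test. Most of each receptor sum came from Notch1 and Notch2, which are over 7500 bases long. Genes of that length had a median log2 fold change of -0.38 in the pooled comparison. The sums were not corrected for this trend, and its part in the receptor difference was not tested.

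The make-up of each sum changed as well. Dll1 gave 42.7% of the ligand RPKM in 4T1.2 cells and 32.3% in 4T1 cells, Dll4 30.4% and 27.6%, Jag2 16.0% and 28.8%, and Jag1 10.8% and 11.2%. In 66cl4 and 67NR cells Jag1 was the main ligand, with 68.7% and 66.3%, and Dll4 gave 5.54% and 2.85%. On the receptor side Notch1 gave 57.9% and 42.1% in 4T1.2 and 4T1 cells but 22.4% and 13.2% in 66cl4 and 67NR cells, and Notch2 gave 39.2% and 40.0% in the first pair and 75.5% and 85.1% in the second. Notch4 reached 17.8% in 4T1 cells and stayed at 2.64% or less in the others.

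**Figure D3:**
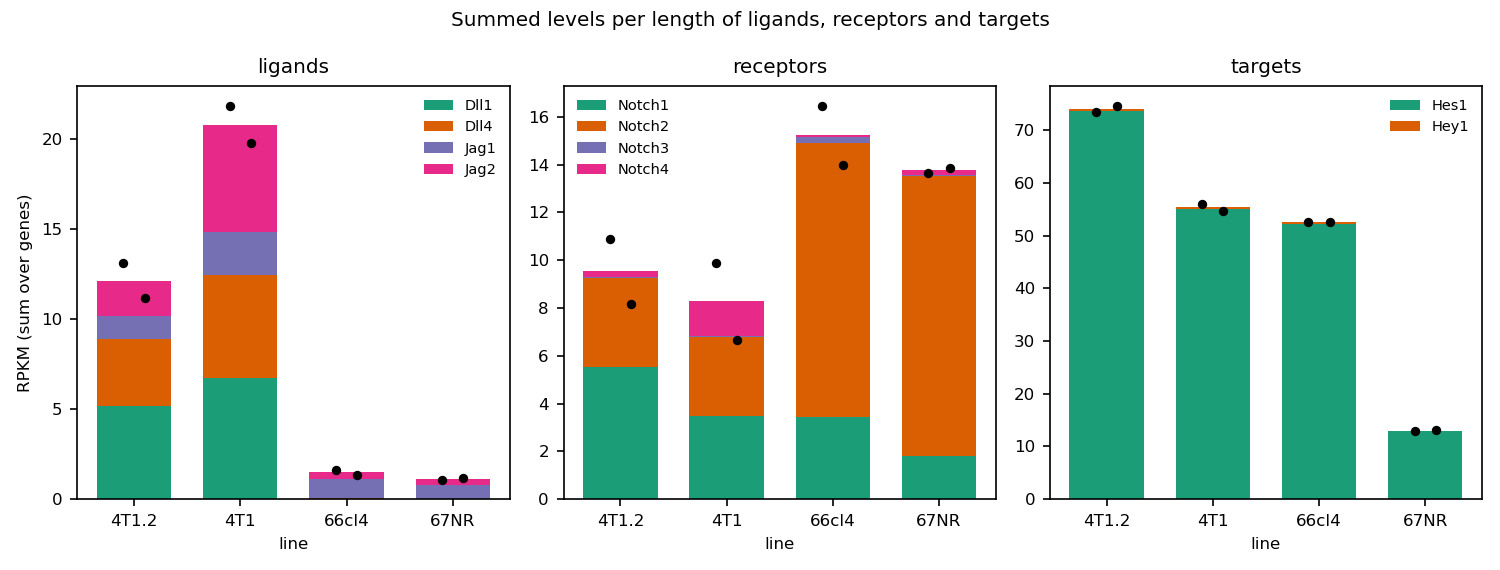
Summed RPKM (vertical axes, linear from 0) of the 4 ligands, 4 receptors and 2 targets in the 4 lines (horizontal axes), stacked by gene from the mean of 2 replicates, with a dot for the sum in each library. Ligand sums are 20.8 and 12.1 in 4T1 and 4T1.2 cells against 1.48 and 1.12 in the others, receptor sums run the other way, and the target sum is low only in 67NR cells. The sums are not corrected for the trend on gene length.

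Put in order of their mean level, Dll4, Jag1 and Jag2 each ran from 4T1 through 4T1.2 and 66cl4 down to 67NR, an order shared by 8.04% of the genes tested, and Dll1 had the same first places with 0 counts in the last 2 lines. Notch1 and Hes1 both ran from 4T1.2 through 4T1 and 66cl4 to 67NR, the order of 8.13% of genes. No correlation was tested over these libraries, since they form 4 lines of 2. Not all steps in these orders passed the test. The step from 66cl4 to 67NR did not for Jag1 (adjusted p = 0.0861) or Jag2 (adjusted p = 0.715). Jag1 did not pass from 4T1.2 to 66cl4 (adjusted p = 0.0934), nor Dll1 from 4T1 to 4T1.2 (adjusted p = 0.107). For Notch1 and Hes1 the step from 4T1 to 66cl4 did not pass, and these lines swapped places when library totals replaced TMM. Notch2 was highest in 67NR and 66cl4 cells, between which it did not pass (adjusted p = 0.926). Notch4 was lowest in 66cl4 cells and Notch3 highest there, and Hey1 was highest in 66cl4 and 4T1.2 cells, between which it did not pass (adjusted p = 0.473).

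Between the 2 metastatic lines, 6 of the 10 genes were called, 2 higher and 4 lower in 4T1.2 than in 4T1 cells, where 19.3% of all genes tested were called, 9.37% higher and 9.90% lower. Every ligand was lower in 4T1.2 cells by its mean, and 3 of them passed: Jag2 with a log2 fold change of -1.62 (SE 0.14, adjusted p = 7.36e-05), Jag1 with -0.83 (SE 0.18, adjusted p = 0.00931) and Dll4 with -0.64 (SE 0.16, adjusted p = 0.0220). The value for Dll1 was -0.37, with an interval of -0.69 to -0.05 (adjusted p = 0.107). Notch4 had the largest decrease of the 10 genes, with -2.55 (SE 0.24, adjusted p = 0.000115). Hes1 was higher in 4T1.2 cells by 0.42 (SE 0.08, adjusted p = 0.00553) and Notch1 by 0.65 (SE 0.20, adjusted p = 0.0447), and Hey1 had a value of 0.93 with an interval of 0.26 to 1.60 (adjusted p = 0.0570). In this comparison, then, 3 of the 4 ligands and Notch4 were called lower in the line where Hes1 was called higher.

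Some of these calls lay near the threshold. That of Notch1 did not pass in 7 of the 8 fits that left out 1 library (adjusted p from 0.0529 to 0.262), the exception being the fit without 4T1 replicate 1. Dll4 did not pass without 4T1.2 replicate 1 (adjusted p = 0.0753), 4T1.2 replicate 2 (0.147) or 4T1 replicate 1 (0.0701), Jag1 did not pass without 4T1.2 replicate 2 (0.0823), and Hey1 passed without 4T1 replicate 2 (0.0258). Without 4T1.2 replicate 2 the number of members called was 3.

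Between the lines of low metastatic potential both targets were called, and of the ligands only Dll4, from 14 counts or fewer. Of the 10 genes, 5 were higher and 1 lower in 66cl4 than in 67NR cells, where 44.6% of genes tested were called, 22.3% higher and 22.4% lower. The genes higher in 66cl4 cells were Dll4, Notch1, Notch3, Hes1 and Hey1, and the lower was Notch4. Notch1 differed by a log2 fold change of 0.91 (SE 0.20, adjusted p = 0.00508) and Notch4 by -1.53 (SE 0.33, adjusted p = 0.00435). Notch4 did not pass without 67NR replicate 2 (adjusted p = 0.0578). Jag2, at 0.10, had an interval of -0.34 to 0.54, and Jag1, at 0.44, one of 0.02 to 0.87.

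In the single-line comparisons across the pairs, the members called came to 8 for 4T1 against 66cl4 and 9 for 4T1 against 67NR, and to 8 for 4T1.2 against each of them. The directions were 5 higher and 3 lower in 4T1 over 66cl4, where 70.0% of all genes tested were called (34.9% higher and 35.2% lower). They were 8 and 1 for 4T1 over 67NR, beside 68.2% (33.8% and 34.4%). For 4T1.2 they were 6 and 2 over 66cl4, beside 68.8% (34.3% and 34.5%), and 7 and 1 over 67NR, beside 67.8% (33.7% and 34.1%). These comparisons share libraries and are not independent of each other. Notch4 was higher in 4T1 than in 66cl4 cells by a log2 fold change of 4.24 (SE 0.29, adjusted p = 7.03e-07), and higher in 4T1.2 than in 66cl4 cells by 1.69 (SE 0.32, adjusted p = 0.00103). Notch1 was higher in 4T1.2 than in 66cl4 cells by 0.69 (SE 0.20, adjusted p = 0.0109), which did not pass without 4T1.2 replicate 1 (adjusted p = 0.0788) or 66cl4 replicate 2 (0.0857). Hey1 was higher in 4T1 than in 67NR cells by 1.25 (SE 0.39, adjusted p = 0.0173), a call that did not pass without 4T1 replicate 2 (0.130), 67NR replicate 1 (0.0730) or 67NR replicate 2 (0.0578).

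A wider list of 42 genes covered the rest of the pathway, from the enzymes that glycosylate and cut the receptors to the nuclear complex and further targets. Of the 35 that were tested, the pooled comparison called 12 higher and 13 lower in the metastatic lines and 10 did not pass, with a median log2 fold change of -0.07, beside the 76.7% of all genes that were called (38.1% higher and 38.6% lower). Between single lines the list was called 6 higher and 2 lower in 4T1.2 over 4T1 cells (19.3% of all genes called), and 13 higher and 4 lower in 66cl4 over 67NR cells (44.6% of all genes called), the last falling to 7 and 4 with library totals in place of TMM and to 8 in all without 67NR replicate 1, 9 without 67NR replicate 2 and 11 without 66cl4 replicate 1. The 7 not tested for lack of counts were Dll3, Dlk1, Dtx1, Rbpjl, Hes5, Hey2 and Heyl, which include 3 of the classical target genes.

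Of the 3 Fringe glycosyltransferase genes, Lfng and Mfng were higher in the metastatic lines, and Rfng was not called, with a log2 fold change of -0.16 (adjusted p = 0.276). Lfng, whose product adds a sugar to Notch receptors and shifts their preference from Jagged towards Delta-like ligands, was at 42.7 and 47.3 CPM in 4T1 cells, 20.2 and 18.0 CPM in 4T1.2 cells, 8.31 and 10.3 CPM in 66cl4 cells, and 6.69 and 7.26 CPM in 67NR cells. It thus ran in the order of Dll4 and passed in all 6 single-line comparisons, with a pooled log2 fold change of 1.86 (SE 0.10, adjusted p = 5.12e-08). That order was shared by 8.04% of the genes tested, among them Adam10, Adam17 and Ncstn of the wider list. Of all genes tested, 4.64% passed in all 6 comparisons, among them Numbl and Nrarp of the wider list. Mfng, a second Fringe, had 19 to 29 counts in each metastatic library and 0 in the others, at least 6.66-fold higher against the floor of 3 counts per library. Poglut1, which glucosylates the receptors, was higher by 1.27 (SE 0.07, adjusted p = 1.13e-07). In the pooled comparison 3 of the 5 glycosyltransferase genes were higher and none lower, beside 38.1% and 38.6% of all genes. By single lines, 3 were higher and 2 lower in 4T1 over 66cl4 cells (70.0% of all genes called). In 4T1 over 67NR cells 3 were higher and 1 lower (68.2% called). None was lower in 4T1.2 over 66cl4 or 67NR cells, where 3 and 4 were higher (68.8% and 67.8% called). Of the 4 ubiquitin ligases that make ligands active by their uptake, Neurl1a was higher by 1.11 (SE 0.13, adjusted p = 3.38e-05), while Mib1 at -0.51 (adjusted p = 0.00335) and Mib2 at -0.63 (adjusted p = 2.41e-05) were lower. These differences were mainly from 66cl4 cells: none of the 4 was called in 4T1.2 over 67NR cells (67.8% of all genes called). In 4T1 over 67NR cells (68.2% called) 1 was, Mib2, at -0.32 (adjusted p = 0.0181).

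Of the 6 tested genes of the nuclear complex, 1 was higher and 5 were lower in the metastatic lines, beside 38.1% and 38.6% of all genes, and the group was not tested as such. The 5 lower genes are all longer than Snw1, the higher one. In this comparison the median log2 fold change was -0.38 for genes over 7500 bases and 0.23 for genes under 1500 bases. Of the 6 genes only Spen is over 7500 bases long, and none is under 1500. The part of gene length in this split was not tested. Rbpj, the DNA-binding member, was at 185 and 184 CPM in 4T1.2 cells, 161 CPM in both 4T1 replicates, 457 and 470 CPM in 66cl4 cells, and 409 and 389 CPM in 67NR cells. Its pooled log2 fold change was -1.32 (SE 0.06, adjusted p = 1.33e-08), and the co-activator gene Maml2 (-0.80, adjusted p = 6.16e-06) and the co-repressor gene Spen (-0.60, adjusted p = 0.0207) were also lower. Rbpj and Notch2 were therefore both lower, though not absent, in the lines where the Delta-like ligands were higher. Numbl, related to the Notch inhibitor Numb, fell by 2.48 on the log2 scale (SE 0.10, adjusted p = 9.40e-09), whereas Numb rose by 0.34 (SE 0.09, adjusted p = 0.00537). The 10 protease genes were split, with 3 higher, among them Adam17 (0.82, adjusted p = 1.42e-06), and 3 lower, among them Aph1a (-0.64, adjusted p = 9.13e-06) and Furin (-0.36, adjusted p = 0.0113). These counts stand beside 38.1% higher and 38.6% lower over all genes. Mean Furin levels were 73.1 CPM in 4T1.2, 58.8 CPM in 4T1, 127 CPM in 66cl4 and 55.8 CPM in 67NR cells. The lower pooled value of Furin therefore came from 66cl4 cells.

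Nrarp, a direct Notch target that limits the signal by acting on the intracellular domain, was the further target with the clearest pattern. It was at 244 and 242 CPM in 4T1.2 cells, 127 and 123 CPM in 4T1 cells, 60.9 and 74.0 CPM in 66cl4 cells, and 56.2 and 54.2 CPM in 67NR cells. No 2 lines overlapped, and the order of the lines was that of Notch1 and Hes1. Unlike Hes1, Nrarp set the metastatic pair apart, with a pooled log2 fold change of 1.51 (SE 0.07, adjusted p = 2.99e-08), and differed little between 66cl4 and 67NR cells, by 0.29 (SE 0.10, adjusted p = 0.0413). The metastatic lines themselves differed as well, with means of 243 CPM in 4T1.2 and 125 CPM in 4T1 cells, and Nrarp passed in all 6 single-line comparisons. Hes7 was lower in 4T1/4T1.2 cells at -0.94 (SE 0.31, adjusted p = 0.0177), from 7 to 18 counts per library. Its mean was 0.132 CPM in 4T1.2, 0.141 CPM in 4T1, 0.356 CPM in 66cl4 and 0.204 CPM in 67NR cells. By single lines Hes7 was called lower in both metastatic lines against 66cl4 cells and in neither against 67NR cells.

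**Figure D4:**
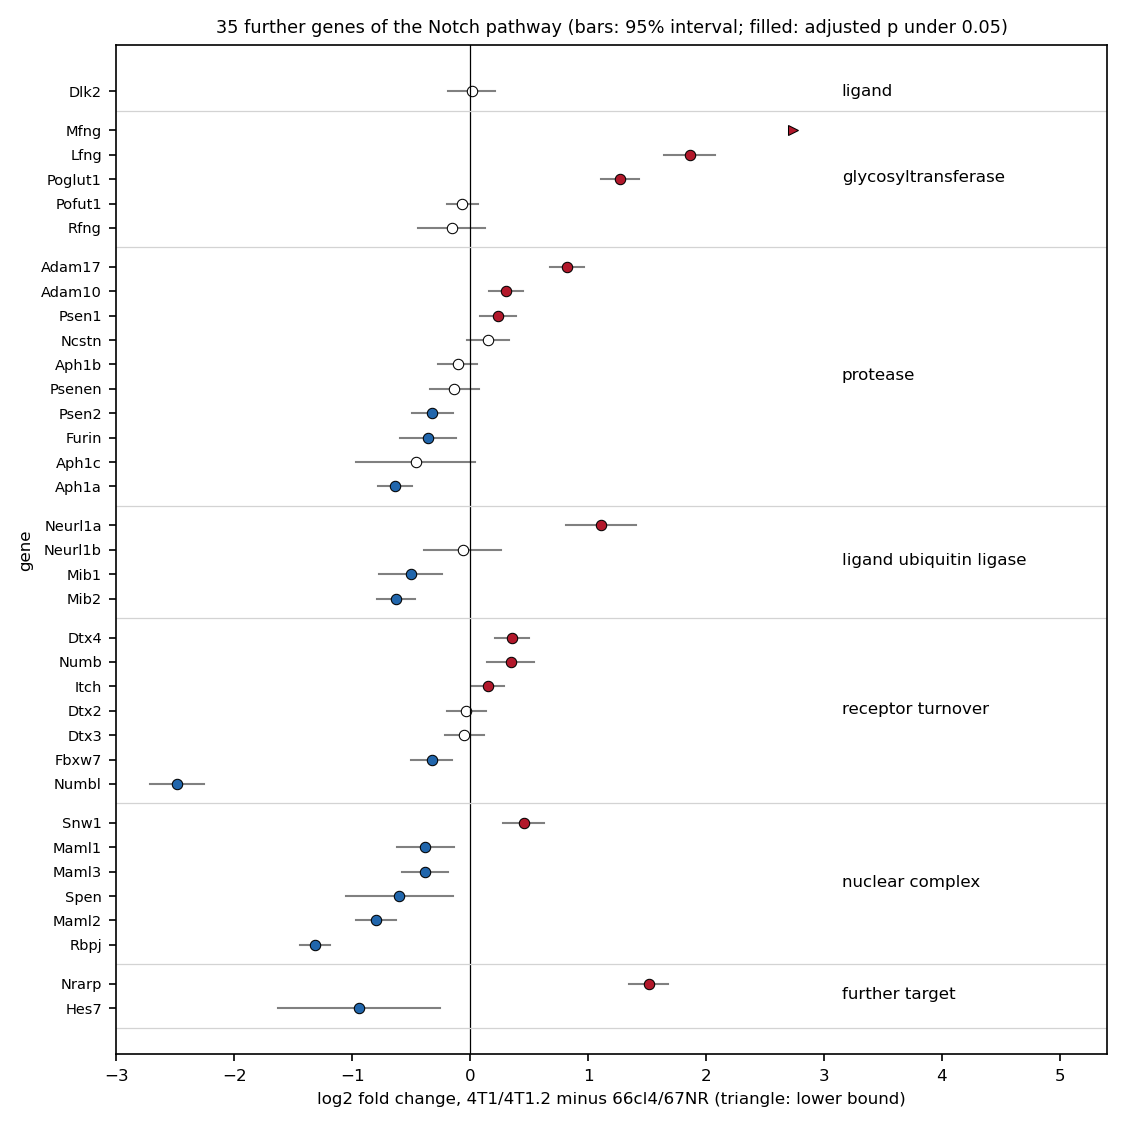
Log2 fold change of 4T1/4T1.2 against 66cl4 and 67NR cells (horizontal axis) for the 35 tested genes of the wider Notch pathway (vertical axis, grouped by role), with bars for the 95% interval and a triangle at the lower bound for Mfng. Lfng, Poglut1 and Nrarp lie to the right, Numbl, Rbpj and Maml2 to the left, and the proteases on both sides of 0.

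Outside the pathway, the genes whose levels ran most like those of a member over the 8 libraries were found by the root mean square difference of log2 CPM after each gene was centred on its mean. The closest to Dll4 were Tnk1 (0.31), Kdf1 (0.32) and Aatk (0.34), and those closest to Hes1 were Nrg2 (0.08), Igfbp4 (0.12) and Slc43a2 (0.13). Jag1 was followed most closely by Omp (0.13), Fgd6 (0.18) and Fam83h (0.18), and Notch1 by Trim69 (0.12), Abhd2 (0.17) and Itga3 (0.17). None of these 12 genes is on the wider pathway list.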

How the data were processed

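RNA-seq counts of 8 libraries, 2 biological replicates for each of 4 cultured lines, were used. The authors prepared libraries with the TruSeq RNA v2 kit, which does not keep strand, used Rsubread to align reads to mm10 and its featureCounts to count them per Entrez gene, and deposited these raw counts without normalization. The methods give an Rsubread version for the endothelial libraries of the study, to which the analysis of these lines was similar, and a strand setting is not given in the sources used here, so overlapping genes can share reads. Lines were taken from the labels, in which one line is spelled 66c14. Of 27179 identifiers, 25275 (93.0%) matched a GRCm38 gene table.

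What follows was computed here. After filterByExpr (15269 genes), unmatched, predicted and ribosomal genes, with 5.39% to 8.00% of a library's counts, were removed, which left 13913 genes. edgeR 4.0.16 (R 4.3.3) fitted a mean for each line with TMM scaling, the legacy quasi-likelihood fit and a prior count of 0.125, and p-values were adjusted by the Benjamini-Hochberg method over the 13913 genes. The pooled contrast set the average of both metastatic lines against that of the other two, on the log2 scale. The biological coefficient of variation was 9.74%, with 4 residual degrees of freedom. Intervals are at the 95% level. A fold against a group at 0 was taken against 3 counts in each library. RPKM used the deposited gene lengths. Replicates of a line differed by more than sampling noise. On simulated counts for the 13913 genes with 200 changed, the pooled test recovered 200 with 18 false calls, and the test of 4T1 against 66cl4 recovered 195 (95 of 100 changed 2-fold, 100 of 100 changed 4-fold) with 15. The simulation changed far fewer genes than were called in the data, left out genes at the lowest levels from those changed, and had no trend on gene length. It therefore does not tell how well members at a few counts were called.

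The named genes are the 10 members, up to 3 called genes of each role on the wider list and, for Dll4, Jag1, Notch1 and Hes1, the 3 genes with the most similar levels. Members, lists and tests were chosen with earlier results of these data known. Alternatives were DESeq2 1.42.0 and its size factors, limma-voom (limma 3.58.1), library totals, no low-count filter, no removal by annotation, the newer edgeR fit, a prior count of 2, removal of the length trend, a replicate block, and leaving out each library.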

Additional observations from a re-analysis of the deposited data

How the results depend on the processing

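Each result was recomputed under 10 other settings and 8 fits that each left out 1 library. With library totals, a choice added after the data were seen, the wider list had 11 genes called between 66cl4 and 67NR in place of 17, and TMM moved the median of all genes by 0.13 in the pooled comparison. No call reversed direction. The values that changed sign had not passed the test: between 4T1 and 66cl4, Notch1 was -0.068 and Hes1 -0.032 with library totals, Hes1 was -0.078 with the length trend removed (also added later), and Notch3 between 4T1 and 67NR was 0.078 with limma-voom. Dll4 between 66cl4 and 67NR did not pass with library totals (adjusted p = 0.0621) or limma-voom (0.0589), nor Notch1 between 4T1.2 and 4T1 with library totals (0.0690) or no removal by annotation (0.0538). Between 4T1.2 and 4T1, Dll1 passed with limma-voom (0.0425) or the length trend removed (0.0431) and Hey1 with the newer edgeR fit (0.0479) or the length trend removed (0.0426), as did Jag1 between 4T1.2 and 66cl4 with the length trend removed (0.00495). The cause was not tested.

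Leaving out 1 library at a time, the members called ranged from 8 to 10 in the pooled comparison, 3 to 6 for 4T1.2 against 4T1, and 4 to 6 for 66cl4 against 67NR. The wider list ranged from 5 (without 4T1.2 replicate 1) to 12 and from 8 to 18 in the last 2 of these. In the same fits the log2 fold change of Notch2 ran from -0.090 to 0.48 for 4T1.2 against 4T1 and from -0.14 to 0.072 for 66cl4 against 67NR, that of Jag2 from -0.071 to 0.36 for 66cl4 against 67NR, that of Notch1 from -0.31 to 0.32 for 4T1 against 66cl4, that of Notch3 from -0.79 to 1.53 for 4T1 against 67NR, and that of Notch4 from -0.066 to 0.53 for 4T1.2 against 67NR. Over all genes, 2681 were called between 4T1.2 and 4T1, against 1372 and 1424 without 4T1.2 replicate 1 or 2, and 6210 between 66cl4 and 67NR, against 4140 without 67NR replicate 2. A fit without a replicate leaves that line 1 library, which is assumed to vary like the others.

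The labels do not say whether replicate numbers pair the libraries. Correlations of the deviations between replicates 1 and 2 ran from -0.12 to 0.27 over 6 pairs of lines. The highest was between 4T1.2 and 4T1 cells, in both of which long genes were higher in replicate 1. With the replicate block, the members called stayed at 9 in the pooled comparison, 6 for 4T1.2 against 4T1 and 6 for 66cl4 against 67NR, the wider list had 25, 7 and 17, and 2879 genes in all were called between 4T1.2 and 4T1.

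With 2 libraries a line, differences near the threshold turn on single libraries, and p-values measure the spread between cultures of the same line only. Genes at a few counts, such as Notch3 and Hes7, are measured least well.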
